A study of Mus musculus with 6 samples.

Results

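The ATF4 response and amino acid supply genes are a set of 36 mouse genes: the transcription factor Atf4 with its partners and targets, amino acid transporters, and enzymes that make amino acids and one-carbon units. They were taken by symbol. Each gene was read from probe sets whose annotation gives only its symbol, and where several exist the one with the highest mean level over the arrays was used. This gave values for 34 of the 36 genes, out of 18193 genes measured in the series, while Pycr1 and Gdf15 had no such probe set and were not analysed here. The members were read in role groups of 8 transcription factors, 9 transporters, 10 measured synthesis enzymes and 7 other measured effectors.

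Expression was measured in Ba/F3 cells, an interleukin-3-dependent mouse pro-B cell line, that had been transduced with the SPAG9-JAK2 fusion in a retroviral Tet-On system, in which doxycycline switches the transgene on. The fusion joins the tyrosine kinase JAK2 to the scaffold protein SPAG9. Both groups carried this construct. The induced group had 3 arrays of cells seeded with 500 ng/ml doxycycline, the uninduced group had 3 arrays of cells seeded without it, and RNA was taken after 48 hours. No array held doxycycline-treated cells without the fusion. The sources used here do not say whether the line is 1 clone or whether interleukin-3 was present, and the cultures are called a triplicate with no statement of separate experiments, so p-values measure the spread between these cultures only.

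The integrated stress response starts when a kinase phosphorylates the initiation factor eIF2, as GCN2 (Eif2ak4) does when amino acids run short and PERK (Eif2ak3) does when proteins misfold in the endoplasmic reticulum. General translation then slows while translation of the Atf4 message rises. ATF4 protein pairs with C/EBP family members, binds composite C/EBP-ATF elements, and switches on genes that import amino acids, make serine, asparagine and proline, charge tRNAs, and in prolonged stress produce the pro-apoptotic factor CHOP (Ddit3). Much of the control of Atf4 is on translation, which arrays of RNA do not measure.

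Promoter windows of the members were searched for the core of such an element, TGATGNAA, on both strands (TTNCATCA on the opposite strand), in RefSeq windows of build GRCm38.p6 that run from 250 bases before to 50 bases after a gene's start. An entry existed for 31 of the 36 members, and 11 of these had a match, while 4.51% of all 27025 genes in the table had one. Shown here are the stretches of 5 members whose signals are described below, from classes that import cystine (Slc7a11), make asparagine (Asns), supply phosphoenolpyruvate (Pck2) or act as stress regulators (Nupr1, Trib3). Each reads 5′ to 3′ along the gene's strand, with matches in capitals. The Nupr1, Pck2, Slc7a11 and Asns stretches cover the 120 bases before the start, and the Trib3 stretch covers 28 bases just after it.
Nupr1, chr7:126625471-126625590, minus strand: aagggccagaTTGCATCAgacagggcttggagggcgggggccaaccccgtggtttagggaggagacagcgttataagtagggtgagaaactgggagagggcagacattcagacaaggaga
Pck2, chr14:55540146-55540265, plus strand: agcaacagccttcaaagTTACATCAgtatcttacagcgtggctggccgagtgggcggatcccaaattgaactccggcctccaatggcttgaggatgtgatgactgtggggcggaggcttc
Slc7a11, chr3:50443614-50443733, minus strand: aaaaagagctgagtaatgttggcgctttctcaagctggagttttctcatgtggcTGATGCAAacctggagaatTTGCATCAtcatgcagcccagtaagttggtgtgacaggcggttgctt
Asns, chr6:7693210-7693329, minus strand: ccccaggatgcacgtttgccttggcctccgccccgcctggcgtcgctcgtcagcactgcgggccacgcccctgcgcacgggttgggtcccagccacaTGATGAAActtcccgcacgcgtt
Trib3, chr2:152344029-152344056, minus strand: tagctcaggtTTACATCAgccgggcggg

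Slc7a11 held a pair of matches facing each other, with first bases at positions -66 and -47 from the start. Asns had one at -23 on its own strand, Nupr1 at -110, Pck2 at -103 and Trib3 at 15, the last 3 on the opposite strand. Jdp2, Atf3, Chac1, Slc1a4, Vldlr and the unmeasured Pycr1 had the other matches. A match is a string of letters and not a measured binding site, and for Ddit3, Atf5, Cebpb or Gpt2 the lack of one says only that these letters are not in this window. Of the 10 measured members with a match, 5 had all induced arrays below all uninduced arrays, as did 11 of the 19 measured members with an entry and no match, 13.4% of all genes and 18.1% of genes above the level of silent genes.

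Array medians ran from signals of 46.3 to 63.8, with uninduced replicate 1 the highest. Over all genes 34 passed the threshold, an adjusted p under 0.05 in limma, 0.187% of those tested, of which 13 were lower in induced cells (7 of 32 with median centring). Without uninduced replicate 1 the same test called 1453 genes, 867 of them lower. The mouse Jak2 probe set read 1430, 1740 and 1600 on induced arrays and 1175, 3439 and 3081 on uninduced arrays, and that of Spag9 read 2219, 1667 and 1938 against 2222, 4702 and 4660. Neither read higher on induced arrays as a group; the sources used here do not say whether these probes match the construct, so they do not check the labels. Of the pro-B cell markers 8 of 11 measured, among them Cd79a, Rag1 and Ebf1, lay below 5.99 on the log2(signal + 16) scale, the 90th percentile of a list of liver and brain genes that stands for silent genes, while Cd79b lay above it. Of 8 genes listed for an interleukin-3-dependent blood cell line, Kit and Cd34 had mean levels below it, and the other 6, among them Ptprc, Il3ra and Csf2rb, above it. The summed signal of these 8 genes was 34327, 53397 and 51930 on induced arrays and 33836, 51404 and 51760 on uninduced arrays. Of the granulocyte and monocyte markers 10 of 12 had lower means in induced cells. Their summed signal was 956 to 1441 on induced arrays and 1866, 4023 and 3453 on uninduced arrays. Summed mast cell markers ran from 236 to 565 on induced arrays and read 472, 1422 and 1580 on uninduced arrays. In both sums uninduced replicate 1 was the lowest array of its group, and for mast cell markers it lay within the induced range. T cell markers ran from 454 to 981 on induced and from 406 to 765 on uninduced arrays, and fibroblast markers from 136 to 220 and from 156 to 199. No marker had a signal of 0, and the part of such markers in the results that follow was not tested. In RNA of whole cultures, fewer cells with a transcript and less transcript per cell cannot be told apart.

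Ddit3, Atf5, Trib3 and Pck2 read lower on every induced array than on any uninduced array, whereas Atf4, Phgdh, Shmt2 and Mthfd2 were high in 1 uninduced culture only. Of the 34 measured members 31 had a lower mean on induced arrays, with a median log2 fold change of -0.52, where 55.9% of all genes were lower and the median of all genes was -0.06. With each array centred on its median 27 were lower. Of the members 10 were lower by at least 1, as were 3.99% of all genes. Fold changes are differences of log2(signal + 16), induced minus uninduced, which understate the change of dim genes. All induced arrays lay below all uninduced arrays for 18 members, as they did for 13.4% of all genes, and the opposite held for 0 members and 10.7% of all genes. Among the genes above the silent level, where 31 of the members lie, the share with all induced arrays lower was 18.1%. An unadjusted p under 0.05 was reached by 14 members, all lower, against 10.3% of all genes in that direction and 7.14% in the other. None passed after Benjamini-Hochberg adjustment over all genes, where the smallest adjusted p in limma was 0.0606 (0 lower and 0 higher of 34; 0.0715% of all genes were called lower and 0.115% higher). Without uninduced replicate 1 limma called 8 members, all lower, where 7.99% of all genes were called, 4.77% lower and 3.22% higher. These were Ddit3, Atf5, Jdp2, Cebpb, Atf3, Trib3, Pck2 and Gpt2, 5 of them transcription factors. Without both replicate 1 arrays it called 4, all lower (Jdp2, Cebpb, Gpt2 and Eif4ebp1). Of all genes 8.12% were called there, 5.24% lower and 2.88% higher. With no array left out, filters on dim genes, a trended and robust variance or a pseudocount of 64 also called members, all lower.

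**Figure D1:**
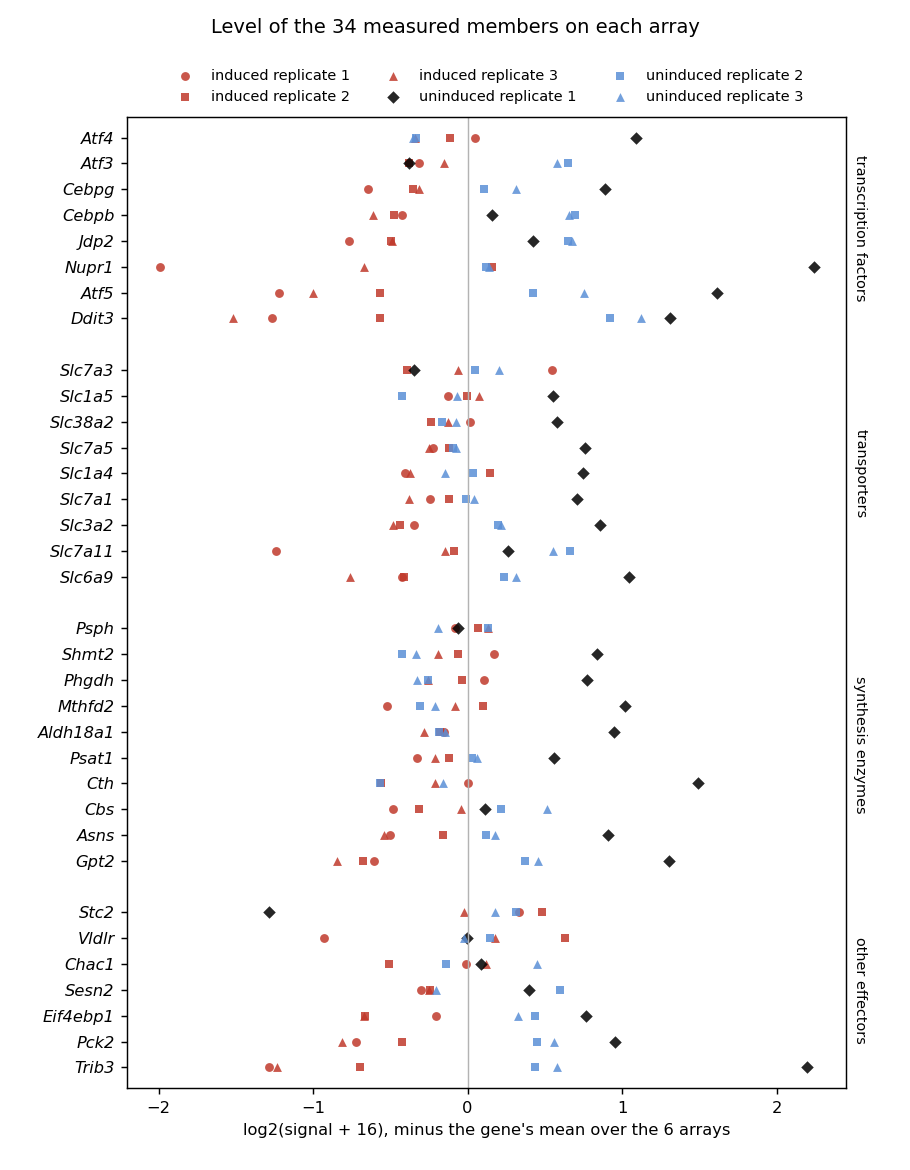
Level of each of the 34 measured members on the 6 arrays, as log2(signal + 16) minus the gene's own mean over the arrays (horizontal axis), with members ordered by fold change within their role; each point is 1 array. The induced arrays (red) lie left of the uninduced arrays for Ddit3, Atf5, Trib3 and Pck2, and uninduced replicate 1 (black diamonds) is the rightmost point in 23 of the 34 rows.

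Transcription factors made up the role group with the lowest median, -1.09 over 8 genes. All 8 had lower means in induced cells, as did 55.9% of all genes. Ddit3, which encodes the stress factor CHOP, gave signals of 394, 652 and 329 on induced arrays and 2437, 1856 and 2141 on uninduced arrays. Every induced culture was thus far below every uninduced one, and uninduced replicate 1 stood close to its group. Its mean went from 2145 ± 290 (SD, n = 3) to 458 ± 171 (SD, n = 3), a log2 fold change of -2.24 ± 0.28 (SE) with an adjusted p of 0.0606 in limma. Without uninduced replicate 1 the change was -2.14 ± 0.32 and the adjusted p 0.0311 in limma. The adjusted p was 0.0626 in limma without both replicate 1 arrays.

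Atf5, a close relative of ATF4 that is also controlled by translation, read 402, 643 and 473 in induced cells and 2967, 1289 and 1628 in uninduced cells. Again the groups did not overlap, but here uninduced replicate 1 was the highest array by a wide margin. The fold change was -1.86 ± 0.35 with all arrays and -1.51 ± 0.25 without that culture, with adjusted p-values of 0.105 and 0.0358 in limma. Jdp2, a bZIP repressor of the AP-1 and ATF type, read 420, 512 and 513 against 980, 1153 and 1167, with no overlap and nearly the same difference between the replicate 1 arrays (-1.19) as between replicates 2 and 3 (-1.15). Its fold change was -1.17 ± 0.17, with adjusted p-values of 0.0799 with all arrays, 0.0229 without uninduced replicate 1 and 0.038 without both replicate 1 arrays in limma.

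Of the C/EBP genes, Cebpb and Cebpg both had groups apart. Cebpb, which encodes C/EBPβ, read 5064, 4899 and 4425 on induced arrays and 7591, 11056 and 10717 on uninduced arrays, so the groups were apart while uninduced replicate 1 was the lowest of its group. The difference was -1.01 ± 0.20 with all arrays and -1.18 ± 0.14 without that culture (adjusted p of 0.112 and 0.0213 in limma). Cebpg, a short C/EBP protein that pairs with ATF4, read 1226, 1504 and 1550 against 3574, 2081 and 2408, with no overlap and a difference of -0.88 ± 0.24 that did not pass in either fit (adjusted p of 0.168 and 0.0882 in limma).

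Atf4 behaved otherwise. Its signals were 8634, 7724 and 6572 in induced cells and 17775, 6617 and 6535 in uninduced cells. The groups overlapped: uninduced replicate 1 lay far above, and the other 5 arrays ran from 6535 to 8634. The fold change of -0.27 ± 0.41 became 0.21 ± 0.17 without that culture, and neither passed (adjusted p of 0.776 and 0.513 in limma). Nupr1, a small stress-induced chromatin protein, had the same culture on top at 1522, against 338 and 343 in the other uninduced cultures, and 65.9, 349 and 189 in induced cells. The groups overlapped, and its -1.67 ± 0.76 became -0.96 ± 0.64 without uninduced replicate 1 (adjusted p of 0.423 in limma). Between replicates 2 and 3, which also leaves out the induced culture at 65.9, the difference was -0.38. Atf3, an ATF4-induced repressor, was dim, with signals of 5.01, 3.94 and 7.4 against 3.92, 24.7 and 22.9 and a mean below the median of the silent genes (5.30), so its call without uninduced replicate 1 (-0.89 ± 0.14, adjusted p of 0.0344 in limma) sits at the floor of the array.

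Among the other effectors, 6 of 7 had lower means in induced cells (median -0.53), and 4 had groups apart. Of all genes 55.9% had lower means, and 13.4% had all induced arrays below all uninduced arrays (18.1% of genes above the silent level). Trib3, a pseudokinase that ATF4 and CHOP induce and that restrains AKT, read 363, 555 and 378 in induced cells and 4219, 1236 and 1368 in uninduced cells. All induced cultures were below all uninduced ones, and uninduced replicate 1 was 1.69 above the mean of the other uninduced cultures. With all arrays the fold change was -2.14 ± 0.49 (adjusted p of 0.132 in limma), and without that culture it was smaller but tighter, -1.58 ± 0.23 (adjusted p of 0.0306 in limma). Pck2, the mitochondrial enzyme that makes phosphoenolpyruvate, read 1709, 2102 and 1599 against 5485, 3861 and 4175. Its groups lay apart with uninduced replicate 1 on top, at -1.31 ± 0.21 with all arrays (adjusted p of 0.0851 in limma) and -1.16 ± 0.17 without it (adjusted p of 0.0317 in limma).

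Eif4ebp1, which encodes the cap-binding inhibitor 4E-BP1, read 5610, 4087 and 4061 in induced cells and 11038, 8738 and 8115 in uninduced cells. No uninduced culture came down to the induced range. The difference was -0.97 between the replicate 1 arrays and -1.04 between replicates 2 and 3, and its adjusted p in limma was 0.12 with all arrays, 0.0627 without uninduced replicate 1 and 0.0401 without both replicate 1 arrays. Sesn2, a leucine sensor that holds mTORC1 back, read 425, 447 and 443 against 703, 808 and 460, so the groups only just failed to overlap, through uninduced replicate 3 (-0.53 ± 0.23, adjusted p of 0.309 in limma). On a second Sesn2 probe set, nearly as bright (mean level 9.08 against 9.09), the groups did overlap. Its log2 levels were 8.64, 8.90 and 8.94 against 10.33, 8.76 and 8.88, with uninduced replicate 1 alone on top. The remaining 3 overlapped: Chac1, which breaks down glutathione, stood at -0.27, the lipoprotein receptor gene Vldlr at -0.08 and the secreted glycoprotein gene Stc2 at 0.53. Signals of the 3 did not exceed 80.8 on any array.

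Amino acid transporters had a median of -0.43 over 9 genes, of which 8 had lower means in induced cells and 5 had groups apart. The shares of all genes were 55.9% and 13.4% (18.1% apart above the silent level). Without uninduced replicate 1 the transporters had a median of -0.16. The glycine transporter Slc6a9 read 342, 343 and 266 in induced cells and 971, 546 and 580 in uninduced cells, a difference of -1.06 ± 0.26 with no overlap (adjusted p of 0.144 in limma, and 0.0561 without uninduced replicate 1). Slc3a2, the heavy chain that carries the exchangers Slc7a5 and Slc7a11 to the membrane, read 4194, 3940 and 3794 against 9663, 6107 and 6172, at -0.84 ± 0.22 (adjusted p of 0.159 in limma, and 0.055 without that culture). For both genes uninduced replicate 1 was highest, and the other uninduced cultures were also above all induced ones. On a second, dimmer probe set of Slc6a9 (mean level 8.17 against 8.90) the difference was -0.53 and the groups overlapped. There uninduced replicate 2 stood at 7.93 on the log2 scale, below induced replicate 2 at 8.06. The cystine importer Slc7a11 read 103, 250 and 238 against 323, 429 and 397, where induced replicate 1 was the low array, at -0.98 ± 0.34 (adjusted p of 0.227 in limma).

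The large neutral amino acid exchanger Slc7a5 read 3587, 3844 and 3506 in induced cells and 7083, 3910 and 3970 in uninduced cells. Its groups did not overlap, yet apart from uninduced replicate 1 all arrays lay between 3506 and 3970, and the difference went from -0.39 ± 0.26 to -0.11 ± 0.13. The arginine and lysine carrier Slc7a1 was alike, with 4723, 5120 and 4287 against 9137, 5532 and 5737, and -0.49 ± 0.24 became -0.26 ± 0.15. Slc38a2, a glutamine and alanine carrier that amino acid shortage induces, went from -0.23 to 0.00, the neutral carrier Slc1a4 from -0.43 to -0.16 and the glutamine carrier Slc1a5 from -0.04 to 0.22. Slc7a3, another cationic carrier, stood at 0.06 and below the silent genes' 90th percentile. None of the 9 transporters passed in limma with or without that culture (0 and 0 of 9). With all arrays 3 had an unadjusted p under 0.05, all lower, where 10.3% of all genes were lower at that p.

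Synthesis enzymes had a median of -0.42 over 10 genes, with 9 lower and 4 with groups apart, against 55.9% and 13.4% of all genes (18.1% apart above the silent level). Their median was 0.015 without uninduced replicate 1, where 5 were lower and 5 higher, against 51.7% of all genes lower. Gpt2, the mitochondrial alanine aminotransferase, was the 1 enzyme called in that fit. It read 902, 856 and 759 in induced cells and 3435, 1793 and 1890 in uninduced cells, at -1.42 ± 0.28 with all arrays (adjusted p of 0.11 in limma), -1.12 ± 0.15 without uninduced replicate 1 (adjusted p of 0.0254 in limma) and -1.18 without both replicate 1 arrays (adjusted p of 0.04 in limma). All 3 uninduced cultures stood above all induced ones, with uninduced replicate 1 the highest.

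Asns, asparagine synthetase, read 4142, 5258 and 4032 against 11024, 6380 and 6621, with no overlap and -0.80 ± 0.26 (adjusted p of 0.211 in limma), or -0.55 ± 0.17 without uninduced replicate 1. In serine synthesis, Psat1, the aminotransferase, read 6606, 7604 and 7181 against 12221, 8474 and 8632 (-0.44 ± 0.20, then -0.26 ± 0.14). Cbs, which makes cystathionine, had groups apart at low signals of 34.7, 41.3 and 53.2 against 61.0, 66.9 and 85.5.

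For Phgdh, Shmt2 and Mthfd2 uninduced replicate 1 alone lay above the other arrays. Phgdh, which commits glucose carbon to serine, read 12115, 11046 and 9480 in induced cells and 19372, 9444 and 9024 in uninduced cells. Without the culture at 19372 all induced arrays lay above both uninduced arrays, by 0.23 ± 0.16 (adjusted p of 0.45 in limma). Shmt2, the mitochondrial serine hydroxymethyltransferase, read 4444, 3778 and 3464 against 7091, 2940 and 3132, and its difference turned from -0.06 ± 0.36 to 0.35 ± 0.17 (adjusted p of 0.265 in limma). Mthfd2, the next mitochondrial folate enzyme, read 2207, 3409 and 3003 against 6452, 2562 and 2743, and went from -0.33 ± 0.39 to 0.09 ± 0.23.

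Aldh18a1, the first enzyme of proline synthesis, read 3729, 3670 and 3416 against 7999, 3655 and 3758, so that apart from uninduced replicate 1 its arrays nearly coincided. Cth, which makes cysteine from cystathionine, read 343, 228 and 295 against 996, 225 and 306, and its -0.51 ± 0.53 became 0.11 ± 0.24. Psph, the last enzyme of serine synthesis, showed neither pattern, at signals of 233, 260 and 271 against 236, 271 and 215 (0.08 ± 0.16).

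**Figure D2:**
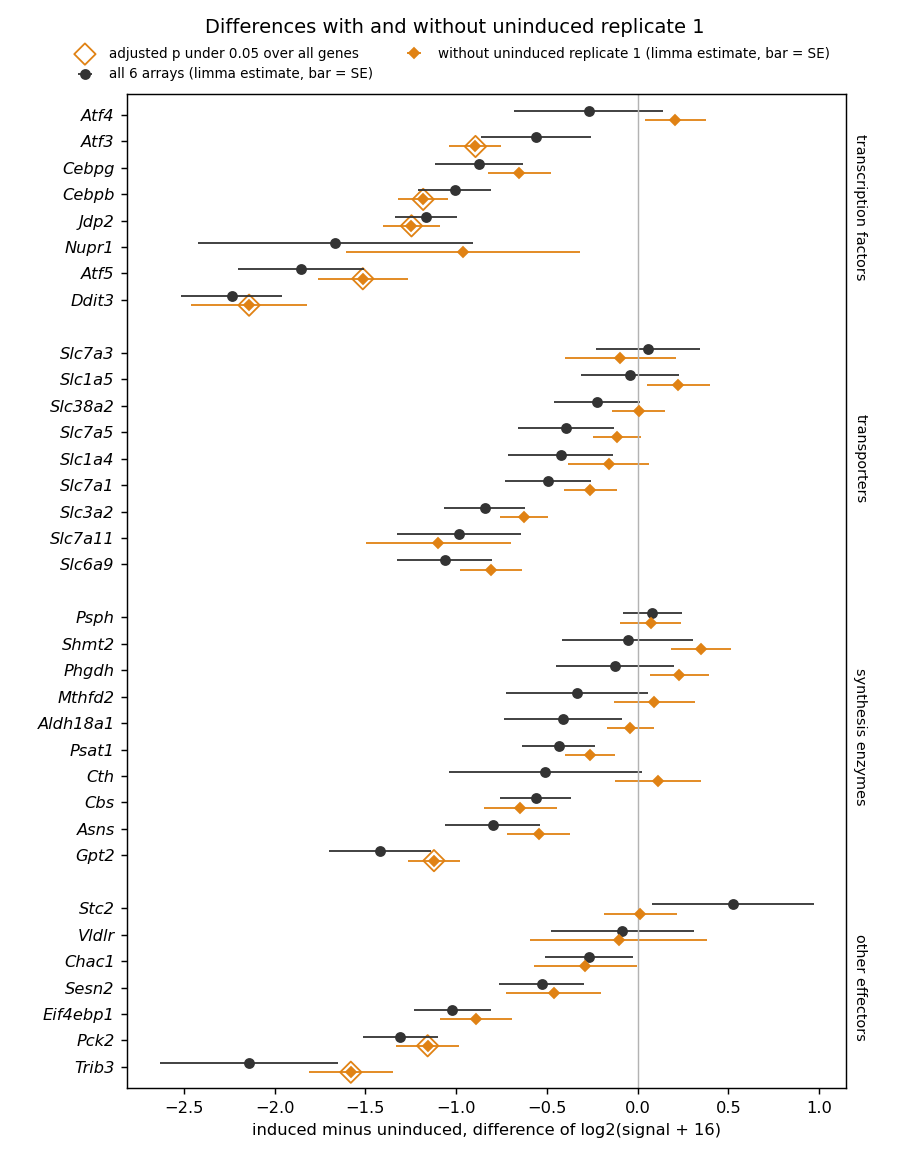
Induced minus uninduced difference of log2(signal + 16) for each measured member, with all 6 arrays (dark circles) and without uninduced replicate 1 (orange diamonds), each with its SE from limma; large open diamonds mark the 8 members with an adjusted p under 0.05 over all genes in the second fit. Ddit3, Jdp2 and Cebpb keep their size in both, while Atf4, Phgdh, Shmt2, Mthfd2 and Cth cross 0.

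Uninduced replicate 1 was the highest of the 6 arrays for 23 of the 34 members, against 24.2% of all genes and 21% of those above the silent level, and exceeded both other uninduced cultures by more than 1 on the log2 scale for 8 members, against 4.52% of all genes. The 8 were Atf4, Nupr1, Phgdh, Shmt2, Mthfd2, Aldh18a1, Cth and Trib3. Its median excess over the mean of the other uninduced cultures was 0.98 for the synthesis enzymes, 0.70 for the transporters, 0.48 for the transcription factors and 0.20 for the other effectors, and 0.08 over all genes. Leaving it out turned the sign for 8 members, 7 of them from lower to higher, and left 25 members lower, where 51.7% of all genes were lower. Without it the groups did not overlap for 19 members with induced cells lower and for 2, Phgdh and Shmt2, with induced cells higher, against 24% and 21.3% of all genes. Between the replicate 1 arrays the median member difference was -1.01, and between replicates 2 and 3 it was -0.37. For the synthesis enzymes these medians were -0.99 and -0.04, and for the transcription factors -1.36 and -1.02.

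Other genes of the pathway, taken from lists written for this purpose, give the setting. Of all genes, 10.3% were lower and 7.14% higher at an unadjusted p under 0.05 in limma with all arrays. After adjustment limma called 4.77% of all genes lower and 3.22% higher without uninduced replicate 1. Among 18 measured cytosolic tRNA synthetase genes, many of them known ATF4 targets, 0 passed with all arrays (smallest adjusted p of 0.172 in limma; 1 lower and 2 higher at an unadjusted p under 0.05), the median fold change was -0.01, and uninduced replicate 1 was the highest array for 12. Without it their median was 0.40, with 0 lower and 2 higher calls, among them Hars (from 0.76 ± 0.34 to 1.15, adjusted p of 0.0203 in limma). Sars stood at -0.92 ± 0.26, Kars at 0.46 and Farsa at 0.58 with all arrays. The 15 endoplasmic reticulum stress genes had a median of 0.17, and uninduced replicate 1 was the highest array for 2 and the lowest for 7 of them, where it was the lowest for 12.2% of all genes. The chaperone gene Dnajb9 stood at -1.41 ± 0.31 and Herpud1, of the degradation machinery, at -0.87 ± 0.18, while Creld2 stood at 0.70 and Sdf2l1 at 0.65. None passed with all arrays (smallest adjusted p of 0.116 in limma, and 4 lower and 2 higher at an unadjusted p under 0.05), and Dnajb9 alone did without uninduced replicate 1.

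Upstream, the list of eIF2 kinases, eIF2B subunits and eIF2 phosphatase genes had a median of 0.23 over 12 measured genes with 0 calls in limma (0 lower and 4 higher at an unadjusted p under 0.05), and 2 calls without uninduced replicate 1, both higher. Of all genes 10.3% were lower and 7.14% higher at that unadjusted p, and 4.77% and 3.22% were called lower and higher without that culture. Eif2ak2, the double-stranded RNA kinase PKR and an interferon-inducible gene, stood at 1.05 ± 0.18 (adjusted p of 0.0897 in limma, and 0.0344 without uninduced replicate 1). Eif2b3, an eIF2B subunit gene named for being the other call, stood at 0.66 (adjusted p of 0.316 in limma, and 0.0246 without that culture). With all arrays Eif2b5 stood at 0.54, Eif2b1 at 0.51 and Eif2ak1, the heme-regulated kinase, at 0.40. The list did not move as one: 4 of the 12 had lower means in induced cells, the lowest at -1.04. Eif2ak3 (PERK) and Eif2ak4 (GCN2) are named as the kinases introduced above. Eif2ak3 stood at -0.32 ± 0.15 with all induced arrays below all uninduced arrays (adjusted p of 0.346 in limma), and Eif2ak4 at 0.04 with overlap. A further 18 amino acid transporters had a median of -0.04 and 20 further enzymes one of 0.10, with 0 calls in either list in limma (1 lower and 3 higher, and 0 lower and 3 higher, at an unadjusted p under 0.05). Without uninduced replicate 1 each list had 2 calls, all higher: Slc43a1 and Slc25a13, and Gclm and Mthfd1 (adjusted p from 0.0225 to 0.0483 in limma). In that fit 3.22% of all genes were called higher. Gclm, of glutathione synthesis, stood at 0.96, the cytosolic folate enzyme Mthfd1 at 0.87, the aspartate-glutamate carrier Slc25a13 at 0.68, Slc43a1, a leucine carrier, at 0.76 and the lysosomal arginine sensor Slc38a9 at -0.67. In the list of mTORC1 brakes and sensors, 11 of 13 had lower means (median -0.20), against 55.9% of all genes. This list had 0 calls in limma (2 lower and 1 higher at an unadjusted p under 0.05). Ddit4 stood at -2.00 ± 0.31 (adjusted p of 0.083 in limma) and was low rather than high in uninduced replicate 1, -0.94 log2 units from the mean of the other uninduced cultures, and it was the 1 call of the list without that culture (-2.31, adjusted p of 0.0133 in limma).

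**Figure D3:**
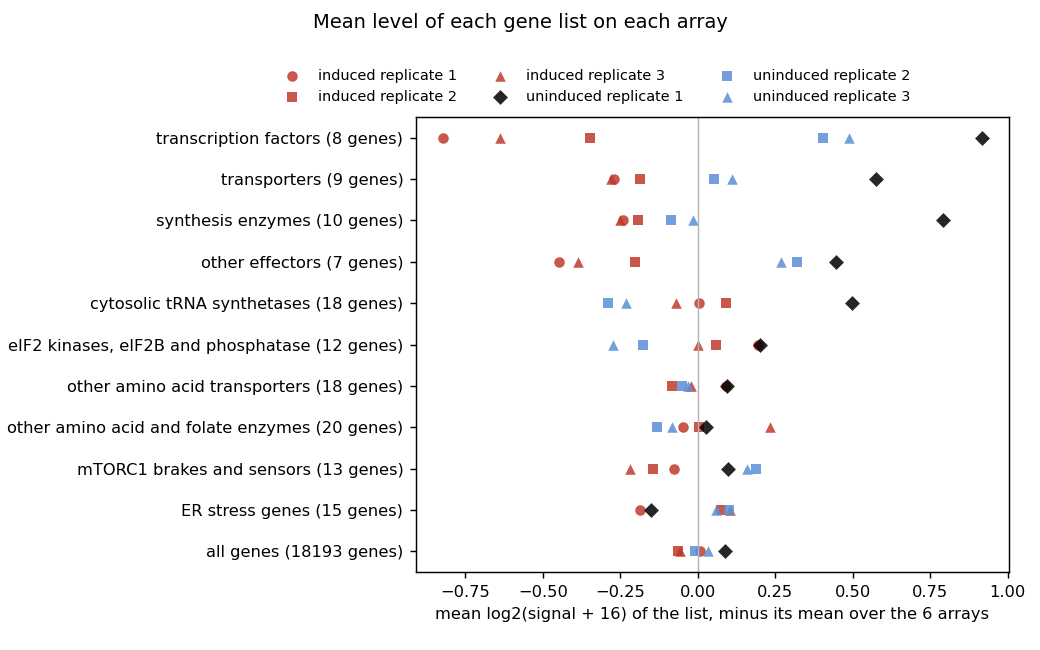
Mean log2(signal + 16) of each gene list on each of the 6 arrays, minus the list's mean over the arrays; each point is 1 array. The induced arrays lie lowest in all 4 role groups and in the mTORC1 list, uninduced replicate 1 lies well above the other 5 arrays for the transcription factors, transporters, synthesis enzymes and tRNA synthetases, and the arrays lie within a narrow range for all 18193 genes.

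Second probe sets bear on how far a single member can be read. Of the 34 members 26 had more than 1 probe set, 46 others in all, and 7 of the 46 had the opposite sign to the one used. Of the 35 others above the silent genes' 90th percentile, 2 did: one of Shmt2, at 0.16, and one of Slc7a1, at 0.19. Trib3 (-1.87), Cebpb (-1.27) and Pck2 (-1.31) had a second probe set close to the first, and the 3 others of Gpt2 ran from -1.23 to -0.81. Ddit3 had a second, dimmer one that read no difference (-0.01, at a mean level of 6.82 against 9.95), so its value rests on 1 probe set, as do those of Atf5, for which there was no other, and Jdp2, whose other lay near the silent genes at 0.14.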

How the data were processed

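Biotin-labelled RNA of 6 cultures was hybridised to Affymetrix mouse arrays. The authors deposited linear signal intensities, 1 per probe set and array, made with Affymetrix Expression Console 1.4.1 per the submitters' processing notes, with a summary algorithm not given in the sources used here. Each array's 2% trimmed mean was 500, so the authors had scaled the arrays alike. The number of arrays limits the precision, and no detection calls were used.

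These were converted to log2(signal + 16) and not normalized again. The 64 control probe sets, 932 with several gene symbols and 9160 with none were left out, and the brightest of each gene's 34945 others was used, with symbols from the platform annotation (34741 matched the gene table by Entrez number, 0 renamed). Groups came from the sample titles. The comparison of induced with uninduced arrays used lmFit and eBayes of limma 3.58.1 in R 4.3.3 (no covariate, 4 residual degrees of freedom, two-sided p, Benjamini-Hochberg over 18193 genes, threshold 0.05), and the method was tested on simulated data. There, for changed genes at or above the median level, it recovered 35.2% of 2-fold and 83.6% of 4-fold changes. Of its calls 5.27% were false. Many changes of 2-fold would thus be missed. An exact permutation test of 3 arrays against 3 cannot reach the threshold and was not used.

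The members and lists were chosen with earlier results of these data known. Array values are given for members whose groups do not overlap, whose fold change is at least 1 in size, or for which uninduced replicate 1 exceeds both other uninduced arrays by more than 1; of each other pathway list up to 4 genes with the smallest p are named. Dim members are given with their signals after these were seen. Promoter windows are RefSeq's. Alternatives were quantile normalization, median centring, a block for the replicate number, filters on dim genes, other probe sets, pseudocounts of 1 and 64, a trended and robust variance, replicate 1 as a term, and leaving out arrays.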

Additional observations from a re-analysis of the deposited data

How the results depend on the processing

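The limma fit of all 18193 genes called 34. Fits under other settings, each with its own total, called 742 with the filter at the median, 69 with that at the 25th percentile, 550 with trended and robust variance, 255 with a pseudocount of 64, 1477 without both replicate 1 arrays, 19 with the most variable probe set, 0 with a pseudocount of 1 (2807 at an unadjusted p under 0.05) and from 0 to 1453 on leaving out 1 array (12, 0 and 1 without induced replicates 1, 2 and 3, and 1453, 0 and 0 without uninduced replicates 1, 2 and 3). Median centring, which moved the median of all genes from -0.06 to 0.10, gave 78.1% higher calls in place of 61.8%. The first of these fits called 0 members. Members called under other settings were all lower, and the filters, trended and robust variance and pseudocount of 64 left out no array. With the filter at the median 9 of 28 were called, where 419 of 9097 genes were called lower. With that at the 25th percentile it was 2 of 33, against 37 of 13645 genes. Trended and robust variance called 9 of 34 and a pseudocount of 64 called 4 of 34, where 313 and 133 of 18193 genes were called lower. Without both replicate 1 arrays 4 of 34 were called, where 953 genes were lower. Leaving out 1 array called from 0 to 8 of 34, where from 0 to 867 genes were called lower. The replicate block gave 0 genes and 0 members (smallest adjusted p 0.198, 3269 genes unadjusted). Replicate 1 as a term, which keeps all 6 arrays, gave 25 genes, 19 lower and 6 higher, and 0 members (smallest member adjusted p of 0.0661 in limma). The numbers pair nothing the labels name: same-numbered arrays' deviations correlated at 0.17, 0.08 and 0.08 over all genes, where each array correlated best with its own number, a hint from the data only. Over the members the same-number correlations were -0.12, -0.11 and 0.18. The median of the other effectors was -1.16 with the filter at the median, which drops dim members. Over all settings the medians ran from -0.66 to -0.36 for the members, from -1.22 to -0.91 for the transcription factors, from -0.60 to -0.16 for the transporters and from -0.58 to 0.015 for the synthesis enzymes, where both upper ends are without uninduced replicate 1. Differences changed sign in 10 members; for each, the range on leaving out 1 array comes first. Atf4 ran from -0.51 to 0.21 (0.12 without both replicate 1 arrays), Mthfd2 from -0.57 to 0.092 (0.27 without both), Phgdh from -0.32 to 0.23 (0.15 without both, 0.029 with median centring), Shmt2 from -0.28 to 0.35 (0.25 without both, 0.10 with median centring) and Slc1a5 from -0.26 to 0.22 (0.28 without both, 0.11 with median centring, 0.0795 with quantile normalization). Cth ran from -0.92 to 0.11, Slc38a2 from -0.37 to 0.0045 and Slc7a3 from -0.20 to 0.27 (-0.35 without both). Vldlr ran from -0.42 to 0.36 (0.34 without both, 0.072 with median centring, 0.039 with quantile normalization, 0.0335 with the mean of probe sets, 0.24 with the most variable one), and Stc2 was at -0.020 without both. The causes were not tested. Members near the silent genes' level are limited by signal over background.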
